A study of Mus musculus with 4 samples.

Results

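The genes described here charge transfer RNAs with amino acids or answer to the transcription factor ATF4, and they were read from the gene expression table of mouse tumors with and without knockdown of Taz. They are the rows whose symbol is a single capital letter followed by ars or ars2, which are the aminoacyl-tRNA synthetases named by the one-letter code of their amino acid, together with Eprs, Atf4 and 12 further genes of amino acid synthesis and stress. The rule found 48 genes among the 15424 listed. Of these, 18 encode cytosolic synthetases, 17 mitochondrial synthetases and 13 belong to the amino acid response.

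Tumors of the shTaz group grew from R728T1 cells carrying a short hairpin RNA against Taz, and tumors of the shLuc group from the same cells carrying one against luciferase. The labels call R728T1 cells "non-SMCs", a term they do not explain, trace them to an Rb/P53 mouse model and give small cell lung cancer as the cell type. Both groups share this origin and were grown under the skin of nude mice, whose blood vessels, stroma and remaining immune cells, apart from mature T cells, contribute RNA to a whole tumor. The labels list 2 samples in each group, but the authors deposited 1 column of FPKM (mapped fragments normalised by transcript length and library size) for each group, so there is no spread between replicates, no test and no p-value. In whole tumors, fewer cells of a type and less RNA per cell cannot be told apart.

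An aminoacyl-tRNA synthetase joins an amino acid to its transfer RNA, and mammals use separate nuclear genes for most of the cytosolic and the mitochondrial enzymes. When amino acids run short, uncharged transfer RNA activates the kinase GCN2, which phosphorylates the translation factor eIF2alpha. General translation then slows while ATF4 is translated more, and ATF4 binds response elements shared with C/EBP factors in genes for asparagine and serine synthesis, amino acid transport, stress factors and many cytosolic synthetases. Because ATF4 is controlled largely at translation, the level of its mRNA does not measure the protein.

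The core of this response element was looked for in the promoters, and its matches are shown first because the results below refer back to it. The core TGATGNAA, with N for any base, was searched on both strands of the RefSeq promoter windows of build GRCm38.p6, the same assembly as mm10, which run from 250 bases before to 50 bases after each annotated start site. Windows were matched for 38 of the 48 genes, and 9 of these (23.7%) held a match, against 2.70% of 8880 genes whose mean reached 1 FPKM and that had a window, and 3.97% of all 32851 windows. The matches lay in 5 of 11 cytosolic synthetases, in none of 14 mitochondrial synthetases and in 4 of 13 amino acid response genes. Windows were not matched for 10 genes, among them Cars, Hars, Hars2, Lars, Nars, Pars2, Rars, Vars and Wars. A match is a description of letters, not evidence of binding. Each line below gives the 30 bases around 1 match in a gene, read 5′ to 3′ along the strand that carries the core, with the core in capitals.
Asns, chr6:7693214-7693243, sense strand of the gene: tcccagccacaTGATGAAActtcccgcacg
Trib3, chr2:152344028-152344057, antisense: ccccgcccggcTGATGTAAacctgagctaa
Chac1, chr2:119351038-119351067, antisense: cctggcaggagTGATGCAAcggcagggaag
Pycr1, chr11:120643833-120643862, sense: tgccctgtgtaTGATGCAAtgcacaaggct
Aars, chr8:111033840-111033869, antisense: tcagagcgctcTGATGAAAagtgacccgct
Gars, chr6:55037960-55037989, antisense: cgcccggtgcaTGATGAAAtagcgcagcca
Iars, chr13:49682126-49682155, antisense: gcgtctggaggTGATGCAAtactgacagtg
Tars, chr15:11399655-11399684, antisense: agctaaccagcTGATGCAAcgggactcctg
Yars, chr4:129189895-129189924, sense: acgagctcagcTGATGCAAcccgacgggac

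Counted along the gene from its RefSeq start site at 0, the leftmost base of the match lay at -23 in Asns, -193 in Chac1, -103 in Pycr1, -30 in Gars and -15 in Tars. It lay just after the start site in Trib3 (14), Aars (9), Iars (7) and Yars (3). The first 235 bases of the windows of Asns and Chac1 are printed in the sense of the gene, since these genes carry the element and lay on opposite sides of 0 in the comparison. In the Chac1 line the capitals are the reverse complement of the core.
Asns, minus strand, chr6:7693225-7693459: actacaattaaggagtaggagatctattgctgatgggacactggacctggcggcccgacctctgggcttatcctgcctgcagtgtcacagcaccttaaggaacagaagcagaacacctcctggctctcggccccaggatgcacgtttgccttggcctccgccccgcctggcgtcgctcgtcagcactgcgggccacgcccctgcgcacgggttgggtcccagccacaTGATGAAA
Chac1, plus strand, chr2:119350992-119351226: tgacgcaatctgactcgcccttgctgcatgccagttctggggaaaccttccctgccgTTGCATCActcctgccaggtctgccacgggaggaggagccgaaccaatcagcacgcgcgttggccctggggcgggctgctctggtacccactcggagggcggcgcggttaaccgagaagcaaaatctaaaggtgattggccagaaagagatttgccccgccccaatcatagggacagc

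**Figure D1:**
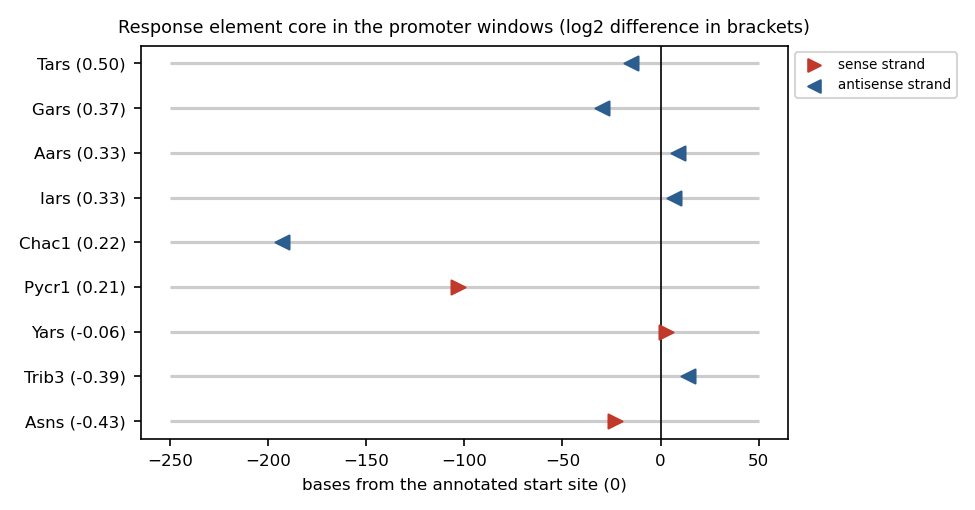
Position of 1 response element core in the promoter window of each of the 9 genes that hold it, in bases from the annotated RefSeq start site at 0, with right-pointing markers for the sense and left-pointing markers for the antisense strand of the gene. The log2 difference of each gene, shTaz over shLuc, stands in brackets: 6 of the 9 genes were higher and Yars, Trib3 and Asns lower in the shTaz column.

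The FPKM values summed to 427921 in the shTaz column and 501728 in the shLuc column, and the sequencing depth is unknown. Wwtr1, which encodes TAZ, was at 15.1 FPKM in the shTaz column and 23.4 FPKM in the shLuc column, and Taz, in the table the older symbol of Tafazzin, at 9.50 and 13.7 FPKM. Of 10 neuroendocrine markers that would define small cell lung cancer, Ncam1 was at 43.8 and 39.8 FPKM and Uchl1 at 1.51 and 10.1 FPKM in the shTaz and shLuc columns. Syp and Insm1, which are closer to defining, were under 1 FPKM in both columns. For the other 6, among them Neurod1, Chga, Chgb, Calca and Dll3, no values were found in the data used here. Host cell markers differed between the columns. The summed FPKM of 7 fibroblast markers was 1008 in the shTaz and 1781 in the shLuc column, of 5 neutrophil markers 55.6 and 5.77, of 4 mast cell markers 1.30 and 22.003, and of 5 skeletal muscle markers 36.1 and 15.1. Pdgfra (13.5 and 8.75 FPKM) of the fibroblast and Tnnc2 (5.86 and 12.4 FPKM) of the muscle markers went against their sums. So did Cxcr2 and Mmp8 of the neutrophil markers, both under 1 FPKM. Most of the neutrophil sum in the shTaz column came from S100a8 (18.6 FPKM) and S100a9 (29.2 FPKM). Most of the mast cell sum in the shLuc column came from Tpsab1 (17.3 FPKM). Macrophage markers went both ways. As deposited 4 of 7 were higher in the shTaz column, with a median difference of 0.36. With the GC trend removed 7 of 7 were higher, with a median of 0.31. Their summed FPKM, carried by C1qa at 1470 and 1868 FPKM, was 2519 in the shTaz and 2870 in the shLuc column. Cpa3 and Mcpt4 of the mast cell markers and Mmp8 of the neutrophil markers had listed values of 0 for shTaz, and S100a8 and Acta1 had listed values of 0 for shLuc. Summed FPKM was 74.97 in the shTaz and 115 in the shLuc column for 5 endothelial markers, 113 and 117 for 5 epithelial markers and 61.2 and 50.7 for 6 cell cycle genes. Kdr (2.68 and 1.69 FPKM) of the endothelial markers and Aurka (11.8 and 19.7 FPKM) of the cell cycle genes went against these sums. Of the 4 epithelial markers whose mean reached 1 FPKM, 3 were higher in the shTaz column. Hypoxia genes summed to 272 and 171 FPKM, and each of the 5 measured was higher in the shTaz column. The part of these cells and conditions in the differences below was not tested.

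Differences are given on the log2(FPKM + 1) scale as shTaz minus shLuc, for the 11650 genes whose mean reached 1 FPKM, and on this scale the contrast of weakly expressed genes is understated. Of the 48 genes, 47 passed this filter, and Mars2 did not. A difference of 0.585, the log2 of 1.5, is called 1.5-fold and a difference of 1 is called 2-fold. The comparison asks which of these genes stood higher or lower in shTaz tumors than in shLuc tumors.

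As a whole these genes differed little between the columns. Their median difference was 0.15, against 0.12 for all genes, and their quartiles were -0.22 and 0.33, against -0.24 and 0.46 for all genes. In the shTaz column 5 genes were 1.5-fold higher, among them Yars2, Psph, Nars and Mthfd2, and only Ddit3 was 1.5-fold lower. These 6 of 47 genes are 12.8%, whereas 27.3% of all genes differed 1.5-fold, 17.3% higher and 9.96% lower. Of these calls over all genes 63.5% were on the higher side, against 47.6% with median-ratio scaling, 51.0% with quantile normalization and 84.1% with the columns scaled to the same total. With the GC trend removed, Yars2, Psph, Aars and Mthfd2 were 1.5-fold higher, against 11.2% of all genes, and Ddit3, Cars2 and Asns 1.5-fold lower, against 7.16%. Where the mean reached 5 FPKM, 4 of 36 of these genes and 24.2% of 7318 genes differed 1.5-fold. Yars2 alone reached 2-fold, as did 7.21% of all genes, 3.96% upward and 3.25% downward.

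**Figure D2:**
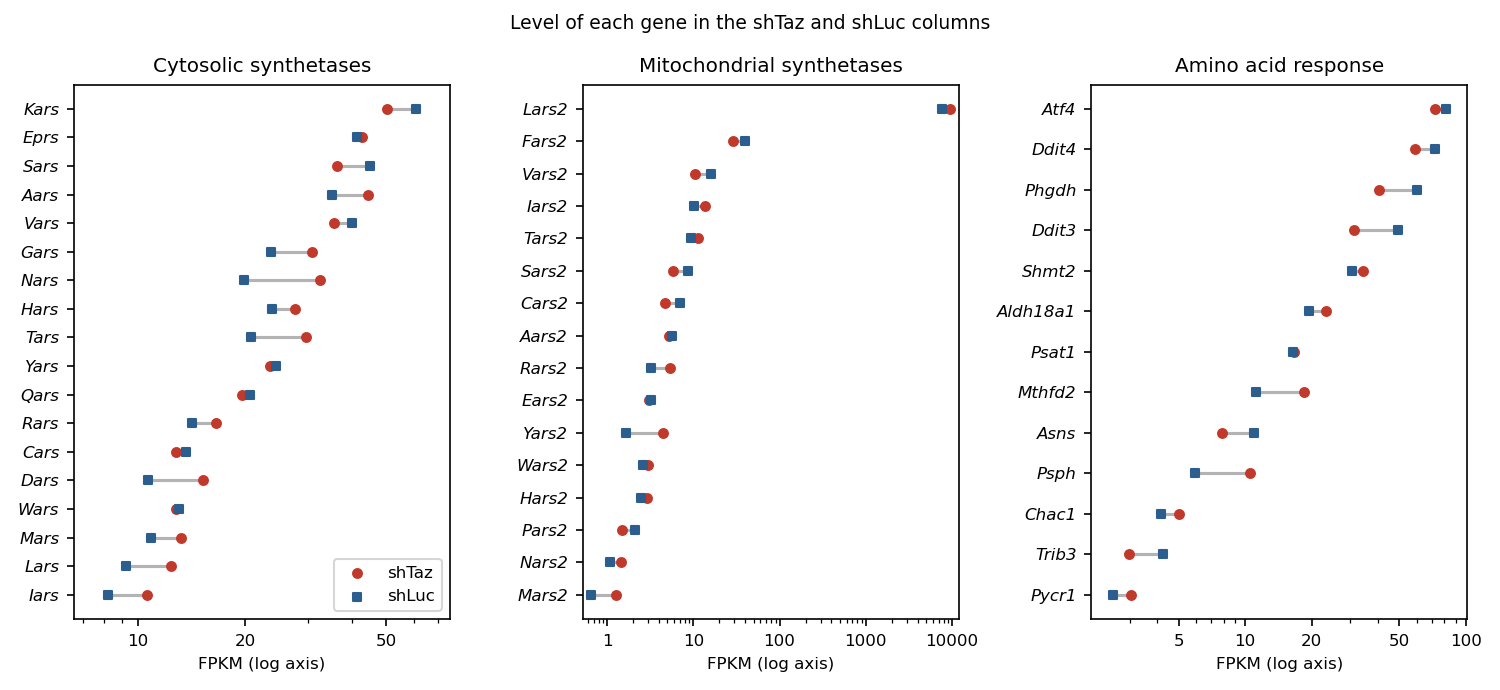
FPKM (log axis) of each gene named in the text, with circles for the shTaz and squares for the shLuc column, joined by a line and ordered by mean level within cytosolic synthetases, mitochondrial synthetases and the amino acid response. Lars2 stood at 9574 and 7648 FPKM, apart from every other gene of the rule, and most cytosolic synthetases lay above most mitochondrial ones.

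Cytosolic synthetases were slightly higher in the shTaz column, by little more than genes in general. Of 18 genes, 11 were higher and 7 lower, against 6792 and 4858 of all genes. The median difference was 0.21 against 0.12 for all genes, and it was positive in each of the 10 other settings tried (0.08 to 0.43). The median of all genes was positive in each of these too (3.4e-05 to 0.31). With the GC and length trends removed the cytosolic median was 0.13, against 0.12 for all genes. The FPKM values of the 18 genes added up to 467 in the shTaz column and 435 in the shLuc column, or 0.109% and 0.0867% of the column totals. Nars, the asparaginyl enzyme, was at 32.6 FPKM in the shTaz column and 19.9 FPKM in the shLuc column, a difference of 0.69. It was the 1 cytosolic synthetase of 18 (5.56%) past 1.5-fold, and 87.1% of all genes lay lower. It fell short of 1.5-fold with median-ratio scaling (0.56), with the GC trend removed (0.52) and with the GC and length trends removed (0.53).

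The next largest positive differences belonged to Tars, Dars and Lars. Tars, the threonyl enzyme, was at 29.8 FPKM in the shTaz column and 20.8 FPKM in the shLuc column. Dars, the aspartyl enzyme, was at 15.3 and 10.7 FPKM, and Lars, the leucyl enzyme, at 12.4 and 9.27 FPKM. Their differences were 0.50, 0.48 and 0.38. With the GC trend removed they were 0.30, 0.085 and 0.20. Gars, the glycyl enzyme, which also supplies mitochondria, was at 31.0 FPKM in the shTaz column and 23.7 FPKM in the shLuc column. Aars, the alanyl enzyme, was at 44.5 and 35.2 FPKM, and Iars, the isoleucyl enzyme, at 10.6 and 8.25 FPKM. Gars, Aars and Iars, at 0.37, 0.33 and 0.33, hold a response element core in their promoter windows, as does Tars.

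Smaller positive differences were found for Mars, the methionyl enzyme (13.2 FPKM in the shTaz and 10.9 FPKM in the shLuc column), and Hars, the histidyl enzyme (27.6 and 23.8 FPKM). Rars, the arginyl enzyme, was at 16.6 FPKM in the shTaz column and 14.2 FPKM in the shLuc column, and its sign turned with the GC trend removed (-0.01). Eprs, whose single protein charges both glutamate and proline transfer RNAs, was nearly equal at 42.7 and 41.3 FPKM, but its difference was -0.26 with the GC trend removed. On the lower side, Sars, the seryl enzyme, was at 36.4 FPKM in the shTaz column and 44.9 FPKM in the shLuc column, and Kars, the lysyl enzyme of cytosol and mitochondria, at 50.1 and 60.4 FPKM. Sars and Kars, at -0.29 and -0.27, were the only cytosolic synthetases that stayed lower in every setting.

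The remaining 5 cytosolic genes lay close to 0. Vars, the valyl enzyme, was at 35.5 FPKM in the shTaz column and 40.0 FPKM in the shLuc column. Cars, the cysteinyl enzyme, was at 12.8 and 13.6 FPKM, and Qars, the glutaminyl enzyme, at 19.6 and 20.7 FPKM. These differences ran from -0.17 to -0.07 and turned positive after scaling to equal totals. Those of Vars and Cars also turned positive with the GC trend removed (0.37 and 0.08). Yars, the tyrosyl enzyme, was at 23.5 FPKM in the shTaz column and 24.5 FPKM in the shLuc column, and Wars, the tryptophanyl enzyme, which interferon induces, at 12.8 and 13.0 FPKM. With the GC trend removed the differences of Yars and Wars turned to 0.06 and 0.12. The summed FPKM of 6 interferon markers was 33.5 in the shTaz column and 47.1 in the shLuc column, and its part in Wars was not tested.

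**Figure D3:**
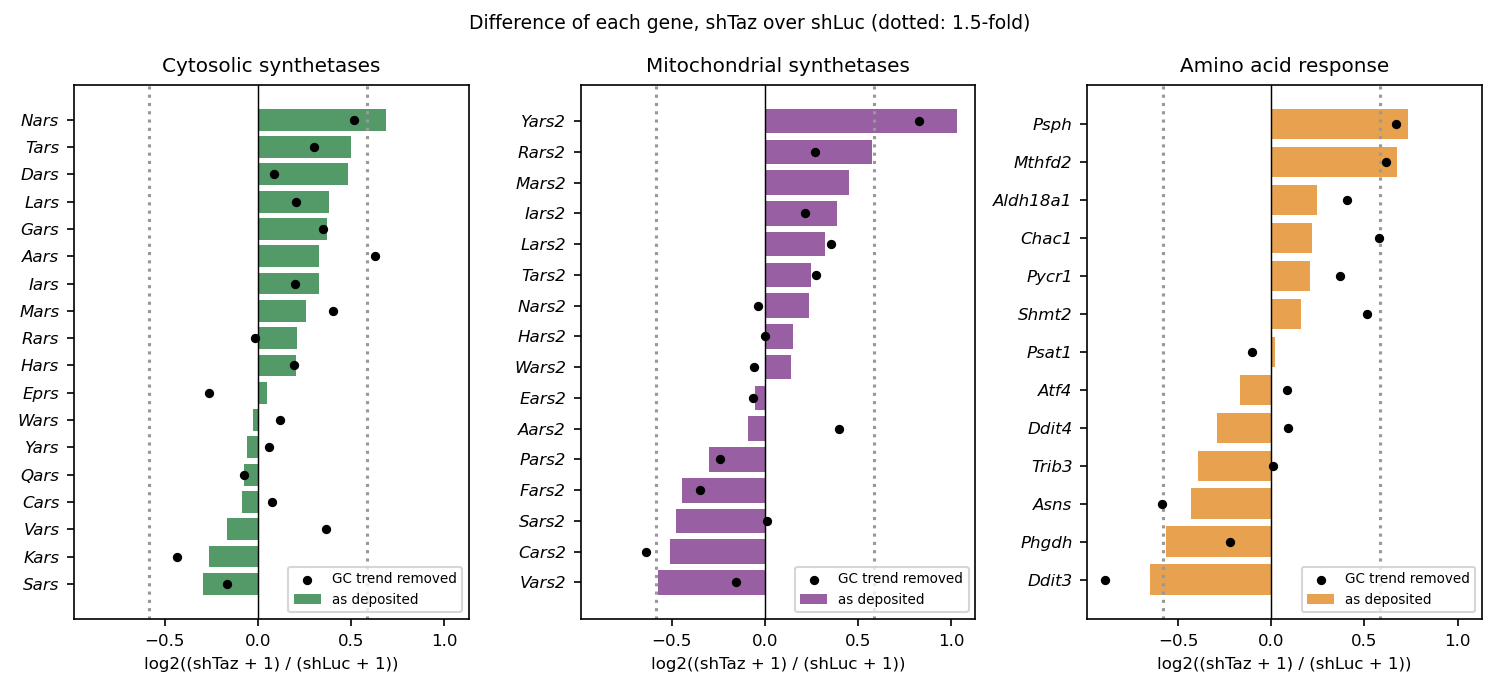
Log2 difference of each gene named in the text, shTaz over shLuc, as deposited (bars) and after removal of the trend with GC content (points, drawn for genes that passed the filter), with dotted lines at 1.5-fold. Bars of Yars2, Psph, Nars and Mthfd2 pass the upper line and that of Ddit3 the lower one, and the points of 14 genes lie on the other side of 0 from their bars. Removal of the trend kept the median of all genes at 0.12, so a point at 0 lies below that median.

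Structure of the cytosolic set did not divide it sharply. The 8 enzymes of the multisynthetase complex, Eprs, Iars, Lars, Mars, Qars, Rars, Kars and Dars, had a median difference of 0.23, with 6 higher and 2 lower. The 10 enzymes outside it had a median of 0.09, which turned to -0.04 with median-ratio scaling, with 5 higher and 5 lower. With the GC trend removed the order was reversed, at 0.04 for the complex and 0.25 outside it. Class II enzymes, which share an antiparallel-sheet catalytic core, had a median of 0.35 over 8 genes with 6 higher. Class I enzymes, built on a Rossmann fold, had a median of 0.01 over 10 genes with 5 higher, and -0.12 with median-ratio scaling. The classes differed in base composition too, with median GC contents of 48.8% in class II and 51.7% in class I. With the GC trend removed their median differences were 0.25 in class II and 0.10 in class I.

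Partners of the synthetases outside the rule were mixed as well. Of 10 measured genes 3 were 1.5-fold higher and none 1.5-fold lower, against 17.3% and 9.96% of all genes. Their median was 0.20, against 0.12 for all genes, and it was 0.01 with the GC trend removed and -0.11 where the mean reached 5 FPKM. Tarsl2, a threonyl synthetase paralog, was at 2.07 FPKM in the shTaz column and 0.384 FPKM in the shLuc column. Xpot, the exportin of transfer RNA, was at 6.64 and 3.76 FPKM, and Gatc, a subunit of the mitochondrial amidotransferase that makes glutaminyl-tRNA, at 18.8 and 11.5 FPKM. The scaffold genes of the multisynthetase complex went different ways and are named after their values were seen: Aimp1 was at 33.7 and 46.4 FPKM, Aimp2 at 19.99 and 29.3 FPKM and Eef1e1 at 6.43 and 4.77 FPKM in the shTaz and shLuc columns.

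Mitochondrial synthetases held a wider range than the cytosolic ones. Of the 16 that passed the filter 9 were higher and 7 lower in the shTaz column, from -0.57 to 1.03. The median was 0.15, but it was 0.01 with the GC trend removed and -0.27 where the mean reached 5 FPKM, so the set had no stable direction. The median of all genes was 0.12 as deposited, 0.12 with the GC trend removed and 0.03 where the mean reached 5 FPKM. Yars2, the tyrosyl enzyme, on chromosome 16 from 16302965 to 16309640 of mm10, was at 4.48 FPKM in the shTaz column and 1.67 FPKM in the shLuc column. Its difference of 1.03 was past 1.5-fold in each of the other settings, all but that of a mean of 5 FPKM, which it did not reach. The smallest was 0.83 with the GC trend removed, short of 2-fold, and 96.5% of all genes lay lower than Yars2 as deposited.

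Other mitochondrial enzymes were higher by less. Rars2, the arginyl enzyme, was at 5.31 FPKM in the shTaz column and 3.23 FPKM in the shLuc column, just short of 1.5-fold with a difference of 0.576. Iars2, the isoleucyl enzyme, was at 13.6 and 10.2 FPKM, and Tars2, the threonyl enzyme, at 11.5 and 9.51 FPKM. Nars2 (asparaginyl) was at 1.44 and 1.07 FPKM, Hars2 (histidyl) at 2.89 and 2.50 FPKM and Wars2 (tryptophanyl) at 3.01 and 2.63 FPKM, and each of these last genes turned sign in at least 1 setting. Mars2, the methionyl enzyme, was at 1.26 FPKM in the shTaz column and 0.648 FPKM in the shLuc column, under the filter.

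Several of the lower mitochondrial genes were among the more abundant ones. Fars2, the phenylalanyl enzyme, was at 28.9 FPKM in the shTaz column and 39.6 FPKM in the shLuc column. Vars2, the valyl enzyme, was at 10.4 and 15.9 FPKM, and Sars2, the seryl enzyme, at 5.86 and 8.56 FPKM. Their differences were -0.44, -0.57 and -0.48. That of Sars2 was 0.01 with the GC trend removed, where the median of all genes was 0.12. Cars2, the cysteinyl enzyme, was at 4.67 FPKM in the shTaz column and 7.07 FPKM in the shLuc column, and Pars2, the prolyl enzyme, at 1.502 and 2.08 FPKM. Aars2, the alanyl enzyme, was at 5.24 and 5.63 FPKM, and Ears2, the glutamyl enzyme, at 3.04 and 3.19 FPKM. The difference of Aars2 turned from -0.09 to 0.40 with the GC trend removed. Cars2, Fars2 and Vars2 were lower in every setting tried, and Pars2 in all but that of a mean of 5 FPKM, which it did not reach.

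Lars2, the mitochondrial leucyl enzyme, stood far from all of these. It was at 9574 FPKM in the shTaz column and 7648 FPKM in the shLuc column. Its difference of 0.32 was 0.00 with quantile normalization. Of all listed genes only Rn45s, the ribosomal RNA precursor, had a higher mean, at 53518 and 64727 FPKM, and it was lower in the shTaz column where Lars2 was higher. Of the words of 30 bases in the longest Lars2 transcript of GENCODE M21, 1.16% also occur in transcripts of other genes. This search covered only exact words in GENCODE M21 transcripts, so it cannot tell where the reads counted for Lars2 came from. The reason for the level of Lars2 was not tested. Without Lars2 the mitochondrial set summed to 105 FPKM in the shTaz column and 114 FPKM in the shLuc column, and the median difference of the set was 0.14.

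Set against their cytosolic partners, most mitochondrial genes were expressed at lower levels. Of 16 pairs, with Eprs standing for both Ears2 and Pars2, the cytosolic gene had the higher FPKM in both columns in 14, and the exceptions were Iars2 and Lars2. Fars2 was not paired, since its cytosolic partners Farsa and Farsb lie outside the rule. Both are named after their values were seen. Farsa was at 39.1 FPKM in the shTaz column and 38.2 FPKM in the shLuc column, and Farsb at 12.9 and 15.6 FPKM. Fars2, at 28.9 and 39.6 FPKM, lay above Farsb in both columns and above Farsa in the shLuc column. Without Lars2 the median ratio of cytosolic to mitochondrial FPKM was 6.21 in the shTaz column and 6.24 in the shLuc column, with ranges of 0.776 to 28.5 and 0.811 to 19.8. In 11 pairs, counting that of Mars2, which is under the filter, the genes differed in the same direction, 8 upward and 3 downward. The pair that parted most was Yars2 and Yars, with differences of 1.03 and -0.06, and its cytosolic to mitochondrial ratio was 5.23 in the shTaz column and 14.6 in the shLuc column.

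**Figure D4:**
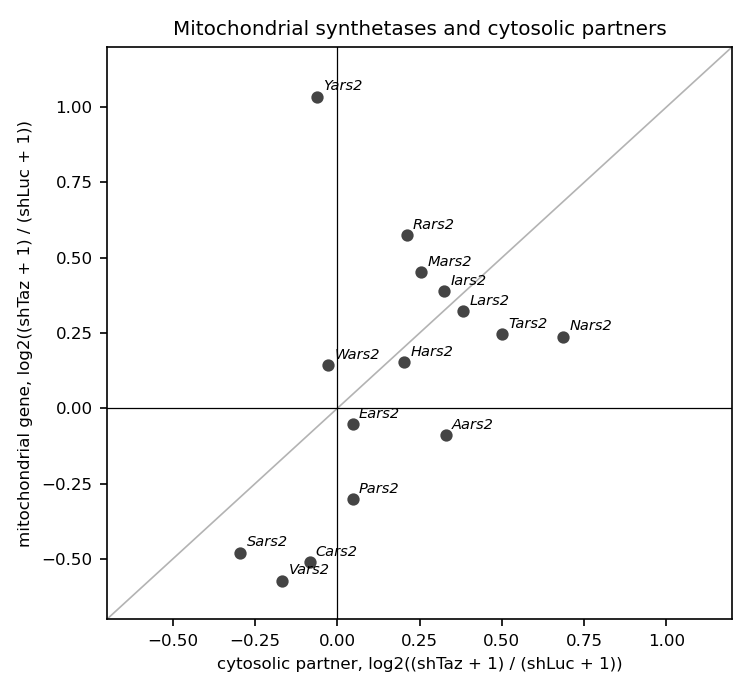
Log2 difference, shTaz over shLuc, of each paired mitochondrial synthetase named in the text (vertical axis) against that of its cytosolic partner (horizontal axis), labelled by the mitochondrial gene, with the diagonal marking equal differences. Fars2 was not paired and is not drawn. Pairs at the upper right were higher in both and Sars2, Cars2 and Vars2 at the lower left lower in both, while Yars2 lies far above the diagonal.

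In the amino acid response 4 of 5 stress factors were lower in the shTaz column. With the GC trend removed 3 of these, Atf4, Ddit4 and Trib3, turned positive but stayed under the median of all genes, 0.12. Of the 8 enzymes of the response 6 were higher, of which Psat1 and Pycr1 turned lower in some settings. Of 13 genes 7 were higher and 6 lower, with a median of 0.02 that turned to -0.11 with median-ratio scaling, -0.01 with quantile normalization and -0.07 where the mean reached 5 FPKM. Past 1.5-fold were 3 of 13 (23.1%), against 27.3% of all genes. Atf4, on chromosome 15 from 80255184 to 80257541, was at 72.2 FPKM in the shTaz column and 81.3 FPKM in the shLuc column. Its difference of -0.17 turned to 0.08 with the GC trend removed.

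Ddit3, which encodes the stress transcription factor CHOP, was the lowest of all 47 genes. It lies on chromosome 10 from 127290774 to 127296288 and was at 31.1 FPKM in the shTaz column and 49.4 FPKM in the shLuc column. Its difference was -0.65, with 8.05% of all genes lying lower. It was lower in every setting, at -0.89 with the GC trend removed, but short of 1.5-fold at -0.28 with the length trend removed and -0.43 with equal totals. Trib3, a pseudokinase that ATF4 and CHOP induce, was at 2.996 FPKM in the shTaz column and 4.25 FPKM in the shLuc column, and Ddit4, also called REDD1, an inhibitor of mTORC1 that hypoxia induces too, at 59.1 and 72.7 FPKM. The differences of Trib3 and Ddit4, -0.39 and -0.29, were 0.01 and 0.09 with the GC trend removed. Chac1, an enzyme that degrades glutathione, was higher, at 5.01 FPKM in the shTaz column and 4.17 FPKM in the shLuc column. The stress factors had a median of -0.29, which was 0.08 with the GC trend removed and 0.13 with the GC and length trends removed. The median of all genes was 0.12 in each of these settings.

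Asns, asparagine synthetase, was lower in the shTaz column although the asparaginyl-tRNA synthetase Nars was higher. Asns lies on chromosome 6 from 7675169 to 7693254 and was at 7.90 FPKM in the shTaz column and 11.02 FPKM in the shLuc column. Its difference was -0.43, lower in every setting and -0.59 with the GC trend removed. Asns and Trib3 were the lowest of the genes that hold the response element core. Over the 9 genes with the core the median difference was 0.22, and over the 28 measured genes with a window and no core it was 0.03, against 0.12 for all genes. None of the 9 passed 1.5-fold as deposited, which 27.3% of all genes did. With the GC trend removed the medians were 0.30 with the core and 0.05 without it, against 0.12 for all genes. In that setting Aars (0.63) was 1.5-fold higher and Asns (-0.59) 1.5-fold lower, as were 11.2% and 7.16% of all genes. The 9 hold no mitochondrial synthetase, so the sets also differ in their subgroups. Among the response genes with the core, Asns and Trib3 were lower and Chac1 and Pycr1 higher.

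The 3 enzymes of serine synthesis went different ways. Phgdh, phosphoglycerate dehydrogenase, which opens the pathway, was at 40.3 FPKM in the shTaz column and 60.1 FPKM in the shLuc column. Psat1, the aminotransferase of the next step, was at 16.7 and 16.4 FPKM. Psph, the phosphatase that releases serine, was at 10.5 FPKM in the shTaz column and 5.91 FPKM in the shLuc column. Along the pathway the differences were -0.57, 0.02 and 0.73. That of Psph ran from 0.58 with quantile normalization, just short of 1.5-fold, to 0.94 with equal totals. That of Phgdh was -0.70 with median-ratio scaling, past 1.5-fold, but -0.22 with the GC trend removed and -0.16 with the GC and length trends removed, and Psat1 turned to -0.10 with the GC trend removed. Of the words of 30 bases in the longest Phgdh transcript 74.8% also occur in transcripts of other annotated genes, and its value is uncertain to the extent that reads were divided among them.

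The mitochondrial one-carbon enzymes were both higher. Mthfd2, a mitochondrial folate dehydrogenase, was at 18.5 FPKM in the shTaz column and 11.2 FPKM in the shLuc column, a difference of 0.68 that was 0.55, short of 1.5-fold, with median-ratio scaling. Shmt2, which splits serine to glycine, was at 34.1 and 30.5 FPKM. Of 11 other measured folate genes 9 were higher and 2 lower, against 6792 and 4858 of all genes, with a median of 0.35 against 0.12. None passed 1.5-fold, which 27.3% of all genes did. Mthfd1, a cytosolic folate enzyme, was at 9.45 FPKM in the shTaz column and 6.58 FPKM in the shLuc column.

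The proline enzymes were slightly higher. Aldh18a1, which makes the precursor of proline from glutamate, was at 23.3 FPKM in the shTaz column and 19.5 FPKM in the shLuc column. Pycr1, which completes proline, was at 3.05 and 2.51 FPKM, and it was -0.01 with quantile normalization. Of 10 other proline and glutamate genes 2 were 1.5-fold higher and none 1.5-fold lower, close to the 17.3% and 9.96% of all genes, with a median of 0.19 against 0.12. Oat, ornithine aminotransferase, was at 26.9 FPKM in the shTaz column and 15.2 FPKM in the shLuc column.

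Among genes upstream of ATF4, 12 of 16 for kinases, phosphatase subunits and other regulators of eIF2alpha were higher in the shTaz column and 4 lower. Past 1.5-fold were 5 (31.3%), all higher, near the 27.3% of all genes that differed 1.5-fold (17.3% of all genes higher and 9.96% lower). The median was 0.26, or 0.22 without the GC trend, against 0.12 for all genes in both cases. Impact, an inhibitor of GCN2, was at 5.53 FPKM in the shTaz column and 1.83 FPKM in the shLuc column. Eif2ak4, which encodes GCN2, was at 3.54 and 1.60 FPKM. Ppp1cb, a catalytic subunit of protein phosphatase 1, was at 19.1 and 9.36 FPKM, and Ppp1r15b, which directs this phosphatase to eIF2alpha, at 11.8 and 6.25 FPKM.

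Other ATF4 targets and partners had no direction that held across settings. Of 23 genes 19 passed the filter, and in the shTaz column 10 stood higher and 9 lower. Past 1.5-fold were 5 higher and 2 lower, together 36.8%, against 27.3% of all genes, 17.3% higher and 9.96% lower. The median was 0.03, and it turned to -0.10 with median-ratio scaling and to -0.03 both with quantile normalization and once the length trend was taken out. It was 0.25 without the GC trend, with 14 higher and 5 lower, 0.22 without the GC and length trends and 0.26 with equal totals. Slc38a2, an amino acid transporter, was at 20.2 FPKM in the shTaz column and 8.37 FPKM in the shLuc column. Atf3, a stress transcription factor, was at 5.69 and 2.54 FPKM, and Gpt2, a mitochondrial alanine aminotransferase, at 9.69 and 5.13 FPKM. Atf5, a relative of ATF4, was lower, at 66.9 FPKM in the shTaz column and 126 FPKM in the shLuc column. Its difference of -0.91 was short of 1.5-fold at -0.34 with the GC trend removed and -0.26 with the GC and length trends removed. Those of Slc38a2, Atf3 and Gpt2 stayed past 1.5-fold in these settings.

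Ddit3 also answers to stress of the endoplasmic reticulum, and genes of the ATF6 and XBP1 arms of that response were mostly higher. Of 13 measured genes 11 were higher and 2 lower in the shTaz column, against 6792 higher and 4858 lower of all genes. Past 1.5-fold were 4 (30.8%), all higher, against 27.3% of all genes, 17.3% higher and 9.96% lower. Where the mean reached 5 FPKM, 2 of 11 differed 1.5-fold, against 24.2% of all genes. The median was 0.37, or 0.31 without the GC trend, against 0.12 for all genes in both cases. Without the GC trend all 13 were positive, but Hspa5 (0.05), Hsp90b1 (0.07) and Calr (0.07) lay under the median of all genes. The 2 lower genes as deposited were Sdf2l1, at 54.1 FPKM in the shTaz column and 60.7 FPKM in the shLuc column, and Creld2, at 63.1 and 63.7 FPKM. Herpud1, a factor of protein degradation at the reticulum, was at 82.1 FPKM in the shTaz column and 49.3 FPKM in the shLuc column. Atf6 was at 15.6 and 7.69 FPKM, Dnajb9, a co-chaperone, at 6.04 and 2.35 FPKM, and Ern1, which encodes the sensor IRE1, at 2.57 and 0.788 FPKM.

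The differences of the synthetases followed the GC content of their transcripts, as those of all genes did. Across the 34 synthetases that passed the filter the Spearman correlation with GC content was -0.62, against -0.56 across 11055 genes, while across the 13 amino acid response genes it was 0.00. The points of each correlation are genes of the same columns and are not independent replicates. Among the 15 genes of lowest GC content (41.2% to 47.7%) 13 were higher and 2 lower, with a median of 0.38, and the median of all 3092 genes in that range was 0.39. Among the 16 genes between (47.7% to 53.0%) 8 were higher and 8 lower, with a median of -0.02 against 0.13 for 3144 genes. Among the 16 genes of highest GC content (53.4% to 60.9%) 6 were higher and 10 lower, with a median of -0.09 against -0.19 for 3341 genes. Nars, Tars and Dars were among the 15, and Vars2, Sars2 and Phgdh among the 16. Asns, Cars2, Ddit3 and Kars had negative differences at GC contents of 45.6% to 48.2%, and Aars, Chac1, Shmt2 and Aldh18a1 positive ones at 53.7% to 57.4%, so that removal of the trend moved them away from 0.

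**Figure D5:**
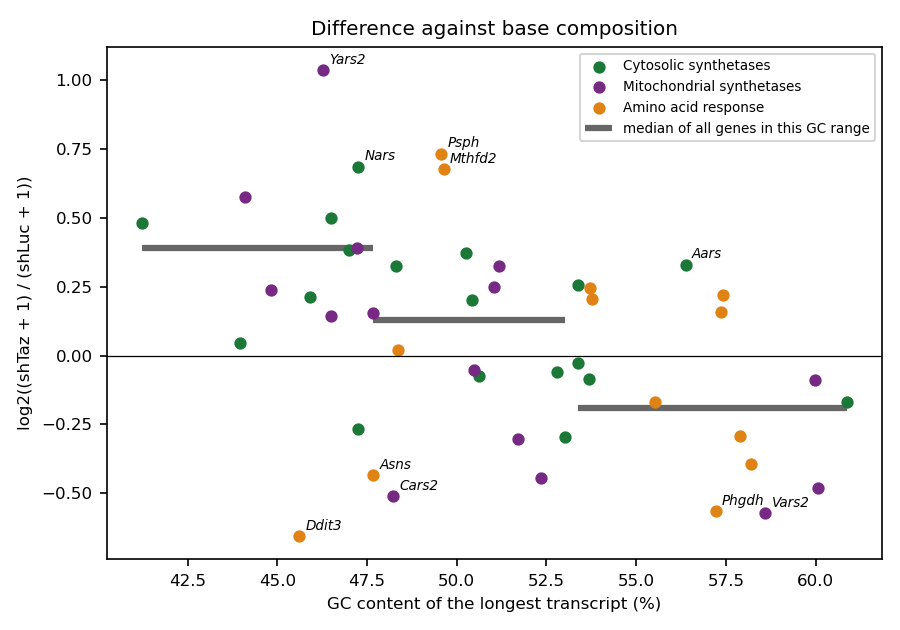
Log2 difference, shTaz over shLuc, of the genes that passed the filter and are named in the text against the GC content of their longest transcript in percent, coloured by subgroup, with grey bars for the median of all genes in each of 3 GC ranges. The synthetases descend with GC content along the grey bars, while Ddit3, Asns and Cars2 lie well below and Psph, Mthfd2 and Aars above them.

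Some of these genes overlap others, and no strand setting is given in the sources used here, so their reads cannot all be told apart. Ddit3 and Mars overlap on opposite strands in 68 exonic bases, and Hars and Hars2 in 195. Iars2 shares 22.9% of its exonic bases with Rab3gap2 on the other strand, and Aars 14.3% with Exosc6 on its own strand. Psph shares 10.4% with a transcript of Cct6a. By words of 30 bases, 36.8% of the longest Iars2, 22.7% of the Aars and 18.4% of the Iars transcript also occur in transcripts of other genes. Yars2, Nars, Mthfd2 and Asns share no exonic base with another annotated gene.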

How the data were processed

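RNA from whole tumors was sequenced, and the authors deposited FPKM values for 15424 genes, 1 column per group. Per the submitters' processing notes, Trim Galore, TopHat and mm10 were used. Versions, the FPKM program, the annotation and whether a column is a mean, a pool or a single library are not given in the sources used here.

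Depth is unknown: ratios of low values of 680 genes fell on steps of whole reads in 17.6% at best and 12.6% at the median shift (tolerance 2%), so no reads were recovered and no intervals are given. The pseudocount was 1, and genes with a mean under 1 FPKM were left out. With 1 column per group no test was run.

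GC content and length came from the longest GENCODE M21 transcript, and their trends were removed by lowess with a span of 0.3 (Python 3.11.15, pandas 2.3.3, numpy 2.4.6, statsmodels 0.14.6, scipy 1.17.1). Removal kept the median of all genes, which was therefore 0.12, not 0, without the GC trend. Removal of the GC trend was tested on simulated data with a linear trend in GC content. Removal of the length trend was not tested in this way. Genes of the rule are named, and other lists give up to 4 genes that differed 1.5-fold, otherwise the 2 that differed most. A few items, 1 gene of the rule among them, are counted but not reported here by name. Genes and lists were chosen with earlier results of these data known. Alternatives changed the pseudocount to 0.1, dropped the filter or raised it to 5 FPKM, scaled by the median ratio, matched quantiles, or took out the GC trend, the length trend or both. Equal totals and omission of Lars2 were chosen after seeing the data.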

Additional observations from a re-analysis of the deposited data

How the results depend on the processing

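No paired analysis was possible because each group has 1 column, and no replicate could be left out. As deposited, median differences were 0.15 for all genes of the rule, 0.21 for cytosolic and 0.15 for mitochondrial synthetases and 0.02 for the amino acid response, with 5 genes 1.5-fold higher and 1 lower. Medians that moved by more than 0.1 or changed sign, and counts that moved by more than 1.5 times, follow. With a pseudocount of 0.1, 3 genes were 1.5-fold lower. Where the mean reached 5 FPKM the medians were 0.033 for all, -0.27 for mitochondrial and -0.075 for response genes, and 3 genes were higher. Median-ratio scaling gave 0.044 for all, 0.078 for cytosolic and -0.11 for response genes, with 3 higher and 5 lower. Quantile normalization gave -0.0032 for all, -0.071 for mitochondrial and -0.014 for response genes, with 5 lower. Removal of the GC trend gave 0.0071 for mitochondrial genes and 3 lower, and removal of the GC and length trends 0.028 for mitochondrial and 0.17 for response genes and 2 lower. Columns scaled to the same total gave 0.33 for all, 0.43 for cytosolic, 0.32 for mitochondrial and 0.24 for response genes, with 11 higher and 0 lower. The cause was not tested. The median of all genes in the table was 0.12 as deposited and with the GC trend removed, 0.00 with median-ratio scaling, 0.02 with quantile normalization and 0.31 with equal totals. Dropping the filter, the length trend or Lars2 left these medians and counts within the same limits. Unknown depth limits what can be said of genes near 1 FPKM, such as Nars2, Pars2 and Mars2.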
